A study of Oryza sativa with 12 samples.

Results

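The response of IR64 rice (Oryza sativa) panicles to heat was read from 6 of the 12 arrays of the series, 3 from heated and 3 from control plants. The comparison took all 57194 probe sets for rice transcripts of the 57381 on the array, leaving out the array's own control and reporter probe sets, and 29801 of them had values high enough to be tested. IR64 is an indica cultivar that the labels class as susceptible to heat. Heated IR64 plants were kept for 8 days, nights included, in a facility set 5 °C above the outside air, from booting onward. Control IR64 plants stood in an open field next to it and were sampled on the same day. Panicles were taken from main tillers in both groups. Heat and growing site changed together, so the effects of the 2 cannot be told apart here. The series also holds 3 heated and 3 control arrays of Nagina 22 (N22), classed as heat-tolerant and treated the same way, which serve below to show where IR64 differs. The sources used here do not say how many plants made up a sample.

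A panicle at booting combines elongating and lignifying branches with spikelets whose anthers and ovaries are still maturing. Branch and vessel cells build secondary walls from cellulose, xylan and lignin, and lignin is polymerised from monolignols that derive from phenylalanine. Heat makes proteins unfold, and plants answer with heat stress transcription factors and with chaperones, among them the small heat shock proteins. Abscisic acid acts through receptors that inhibit clade A protein phosphatases 2C, which frees SnRK2 kinases (SAPK in rice). In bulk samples such as these, fewer cells of a type and less RNA per cell cannot be told apart.

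The arrays within each IR64 group were close to each other, with Pearson correlations over probe sets of 0.9961 to 0.997 among controls and 0.995 to 0.9957 among heated samples, against 0.9467 to 0.9494 between the groups. Of the 16 flower identity genes used to check the tissue, 15 were above background on at least 1 IR64 array. DL, a carpel and midrib gene, was at background on all 6. MADS13 averaged 2.46 in control, under background, and 5.49 in heat. The summed log2 level of the 16 markers was 14.38 to 14.48 in control and 14.07 to 14.19 in heat. Of 13 tapetum and pollen wall markers on the array, 10 were at background on all 6 arrays, as were 12 of 15 endosperm markers and 5 of 10 meiocyte markers. Green tissue markers summed to 17.27 to 17.33 in control and 17.17 to 17.26 in heat. Markers of lignified axis and vessels moved most, from 14.87 to 14.96 in control to 10.77 to 10.97 in heat, and the N22 arrays lay between 11.62 and 11.74. These 10 markers, among them CESA4, CESA7, BC1 and LAC10, are also members of the wall groups described below, so they are no independent check of those groups.

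RNA quality moved with the groups. On the control arrays the signal of the GAPDH transcript was 4.59, 4.93 and 4.84 log2 units higher at its 3' end than at its 5' end. On the heated arrays this difference was 8.07, 7.76 and 7.97. The groups did not overlap, and the change of 3.15 had an exact two-sided permutation p of 0.1, the smallest that 3 against 3 arrays allow. N22 control and heat had differences of 8.59 ± 0.14 and 8.81 ± 0.17 (SD, n = 3), so the IR64 controls stood apart from the other 3 groups. The 3' excess over the middle was also larger in heat for actin (4.92 ± 0.21 against 6.75 ± 0.091, SD, n = 3). There the N22 groups, at 5.23 and 5.03, lay near the IR64 controls. In heated IR64 samples the middle probe set of actin averaged 3.38, under the background level of 4.20 defined below. The 6.75 is therefore not a measured difference. For ubiquitin the 3' excess over the 5' end averaged 1.45 among IR64 controls and 2.15 among heated IR64 samples, with 2.21 and 2.04 for N22 control and heat, so the IR64 controls again stood apart. Spike-in RNAs added at hybridisation were higher in heat on 18 of 18 probe sets (median 0.90), and those added at labelling on 24 of 24 (median 1.57). These shifts accompany every IR64 result below, and their part in those results was not tested.

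**Figure D1:**
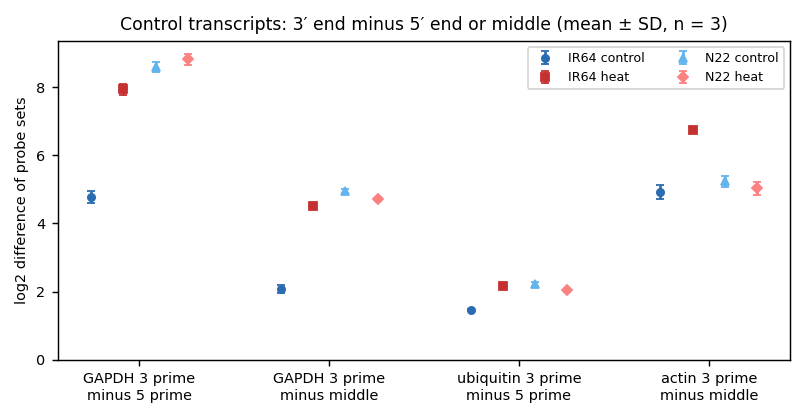
Difference in log2 signal between probe sets at the 3' end and at the 5' end or middle of 3 control transcripts, as the mean and SD of 3 arrays in each of the 4 groups. The GAPDH difference of IR64 control, 4.79, lies below that of IR64 heat, 7.93, and of both N22 groups. For actin in IR64 heat the middle probe set averaged 3.38, under background, so that difference is not a measured one.

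Over a majority of the tested transcriptome was called different in heat. Called means that limma's two-sided test, adjusted by Benjamini-Hochberg over all 29801 probe sets, gave p under 0.05, and all differences are heat minus control in mean log2 value, followed by ± the fit's standard error unless marked SD. Limma called 15427 probe sets (51.8%), 7217 higher (24.2%) and 8210 lower (27.5%). At 2-fold or more, 1917 were higher (6.43%) and 3254 lower (10.9%). Centring each array on its median shifted all differences by 0.11 and turned the balance to 9129 higher and 6938 lower, while 2-fold falls stayed more frequent than 2-fold rises, 2833 against 2393. With 1 probe set per gene, 4750 of 16069 genes rose (29.6%) and 5388 fell (33.5%), with a median of 0.00 over all genes. Of all genes, 63.1% were called and 20.1% passed 2-fold (7.31% higher, 12.7% lower). Among the 2276 genes with a name 69.5% were called, 27.6% higher and 41.9% lower, and 25.5% passed 2-fold (7.69% higher, 17.8% lower). These gene percentages are the background for every group below. Nothing in the labels says that the replicates are separate plants, so the p-values reflect only how far these samples vary, which may be technical variation.

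Switching between background and clear signal was rare and went mostly downward. Background is the highest value of the reporter probe sets, 4.20, which match no rice gene. With heat, 145 probe sets (0.254% of 57194) went from at least 2 log2 units above that level on all 3 control arrays to background on all 3 heated arrays, and 31 (0.0542%) did the reverse. The 145 included probe sets of 97 genes. In N22, 82 of the 145 lay at background on all 6 arrays. For a gene at background on all 3 arrays of one group, the text sets the other group's mean against the background level and writes "at least" before the fold. Where only some arrays of a group lay at background, the fitted difference is given, and its size is not fully measured.

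**Figure D2:**
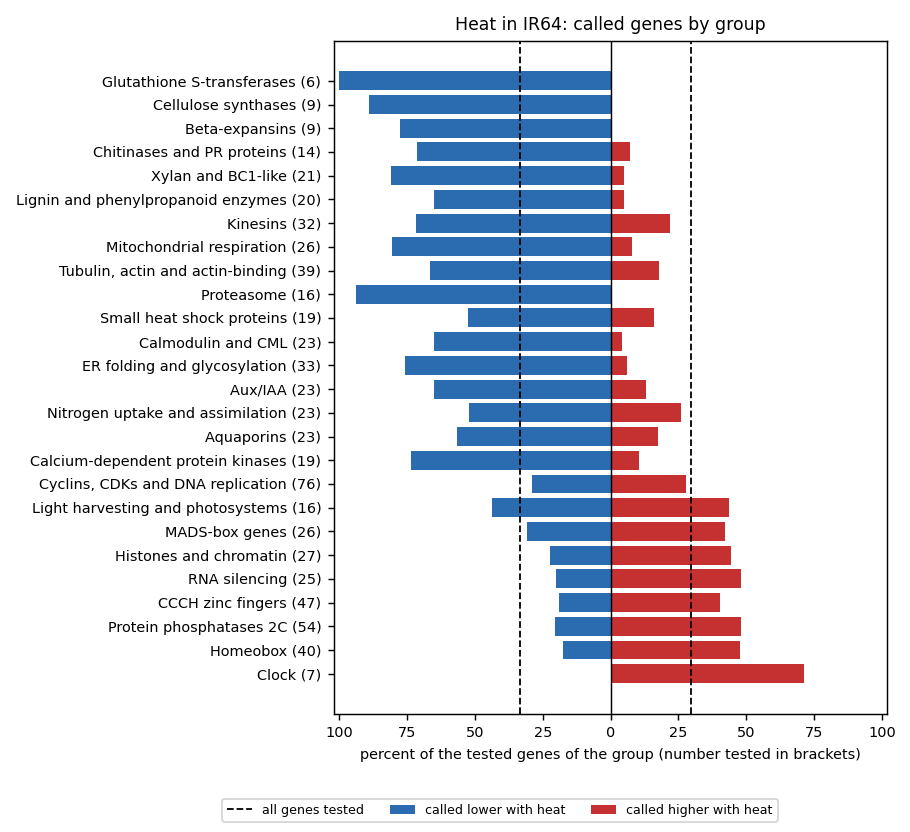
Share of the tested genes of 26 functional groups that were called lower (left, blue) or higher (right, red) with heat in IR64, with the number of genes tested in brackets and dashed lines at the shares over all genes, 33.5% lower and 29.6% higher. Wall, chaperone and respiration groups lie to the left, and the clock, homeobox and protein phosphatase 2C groups lie to the right. The groups hold only genes with a name, of which a larger share fell and a smaller share rose, as given above.

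Transcripts of lignin precursor enzymes were mostly lower. Of 20 genes of the phenylpropanoid and monolignol pathway, 13 fell, 1 rose and 6 were not called. Their median was -1.07, beside -0.12 over genes with a name and 0.00 over all genes. PAL06 (LOC4330040), a phenylalanine ammonia-lyase that starts the pathway, read 13.49, 13.98 and 13.68 in control and 7.93, 7.67 and 7.63 in heat. The groups were far apart, and PAL06 fell by 5.98 ± 0.21 (limma adjusted p = 7.26e-09). Its relative PAL (LOC4330034) fell by 1.53 ± 0.096. The 4-coumarate:CoA ligase 4CL5 (LOC4345717), which activates the acids made by PAL and its partners, went from 11.13, 11.08 and 11.01 to 4.14, 4.06 and 3.79. All 3 heated arrays were at background, so 4CL5 was at least 117-fold lower. Among the other ligases 4CL3 fell by 5.87 ± 0.085 and 4CL4 by 2.28 ± 0.096, while 4CL2 differed by 0.33 ± 0.19 and was not called.

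Genes of the following steps fell too, with exceptions. The hydroxycinnamoyl transferases HCT1 and HCT2, which make the esters that are then hydroxylated, fell by 4.03 ± 0.078 and 3.26 ± 0.12. HCT3 was not called, at 0.42 ± 0.26. COA20 (LOC4345934), a caffeoyl-CoA O-methyltransferase also named ROMT-15, fell by 4.84 ± 0.084. The cinnamyl alcohol dehydrogenases close the pathway, and CAD2, CAD3 and CAD1 fell by 3.75 ± 0.070, 1.08 ± 0.081 and 1.05 ± 0.051. CAD8C differed by 0.17 ± 0.10 and was not called. ROMT-17, another O-methyltransferase gene of the list, rose by 1.26 ± 0.095, but 1 of its other 3 probe sets was called the opposite way.

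Enzymes on either side of the pathway differed in direction. DAHPS1 (LOC4333014) and SK3 (LOC4337165, on a probe set that can match several transcripts), the DAHP synthase and shikimate kinase of the route that makes phenylalanine, fell by 4.80 ± 0.084 and 5.20 ± 0.092. DAHPS1 read 13.11, 12.84 and 12.89 in control and 8.28, 8.13 and 8.03 in heat. Laccases oxidise monolignols in the wall, and they did not move one way. LAC10 (LOC4332400) went from 10.76, 10.68 and 10.71 to 5.76, 4.82 and 5.82, and fell by 5.25 ± 0.26. LAC7 (LOC4324802), at background in all 3 controls, read 6.58, 6.08 and 6.75 in heat and was at least 4.81-fold higher.

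**Figure D3:**
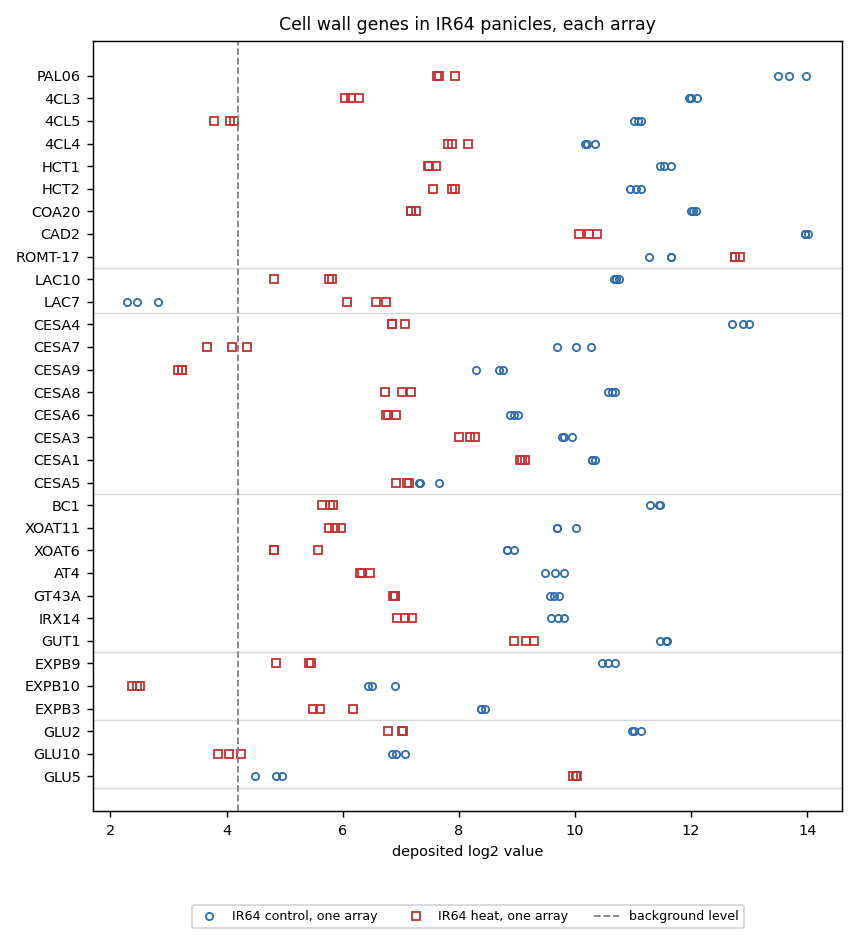
Deposited log2 value of 32 cell wall genes on each of the 3 control (circles) and 3 heated (squares) IR64 arrays, in blocks for monolignol enzymes, laccases, cellulose synthases, xylan and BC1-like genes, beta-expansins and endoglucanases; the dashed line is the background level, 4.20. Heated arrays lie below controls except for ROMT-17, LAC7 and GLU5, and levels should be compared along a row and not between rows.

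Cellulose synthase genes fell by amounts that differed by their role. Of the 9 tested, 8 fell and CESA2, at background in both groups, was not called. The median was -2.13. The 3 that build secondary walls in rice fell furthest: CESA7 by 5.96 ± 0.20, CESA4 by 5.95 ± 0.089 and CESA9, at background in heat, at least 20.8-fold. CESA7 read 4.099, 4.347 and 3.658 in heat, with a mean under background, so the size of its fall is not fully measured. CESA4 (LOC4324625) read 12.71, 12.90 and 12.99 in control against 7.07, 6.84 and 6.84 in heat, and its second probe set also fell. Among those of primary walls, CESA8 fell by 3.66 ± 0.10, CESA6 by 2.13 ± 0.11, CESA3 by 1.69 ± 0.076, CESA1 by 1.22 ± 0.050 and CESA5 by 0.39 ± 0.10. The fall of CESA5 was not called under 1 of the alternative settings tried.

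Genes of xylan, the main hemicellulose of grass walls, fell alongside cellulose. Of 21 xylan and BC1-like genes 17 fell, 1 rose and 3 were not called (median -1.20). BC1 (LOC4333114), a COBRA-like protein needed for secondary wall assembly and stiff rice culms, read 11.47, 11.44 and 11.30 in control and 5.83, 5.78 and 5.64 in heat, a fall by 5.65 ± 0.13. The xylan O-acetyltransferase gene XOAT11 fell by 3.93 ± 0.10 and XOAT6 by 3.81 ± 0.17. The xylan backbone glycosyltransferases GT43A, IRX14 and GUT1 fell by 2.76 ± 0.077, 2.63 ± 0.080 and 2.40 ± 0.077. AT4 and AT7, acyltransferases of the BAHD family, fell by 3.28 ± 0.14 and 2.11 ± 0.070. XAT2, a xylan arabinosyltransferase gene, rose by 0.51 ± 0.14.

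Genes for wall loosening split by family. Beta-expansins, which loosen grass walls, had 7 falls, no rise and 2 genes not called out of 9. EXPB9 (LOC4349301) read 10.57, 10.47 and 10.69 in control and 5.43, 5.46 and 4.84 in heat, and fell by 5.33 ± 0.20, while EXPB3 fell by 2.65 ± 0.15 and EXPB17 by 1.66 ± 0.12. The 13 alpha-expansin and expansin-like genes had 5 rises and 5 falls, led by EXPA29 (at least 1.60-fold higher, from background) and EXLA4, which fell by 2.16 ± 0.17. Endo-1,4-beta-glucanases cut glucan chains, and GLU2 and GLU10 fell by 4.09 ± 0.078 and 2.90 ± 0.11. GLU10 averaged 4.05 in heat, under background, so the size of its fall is not fully measured. GLU5 (LOC4324643) did the opposite, from 4.96, 4.85 and 4.50 to 10.01, 9.96 and 10.04, and rose by 5.24 ± 0.17 (limma adjusted p = 4.12e-09). That was the largest rise among genes with an informative name.

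Cell division genes separated into a mitotic group that fell and a replication group near 0. Of 8 mitotic cyclin and CDKB genes 7 fell and 1 rose, with a median of -1.51. CYCB2 (LOC4342121), a B-type cyclin, read 9.05, 8.95 and 9.03 in control and 4.53, 4.51 and 4.79 in heat, and fell by 4.40 ± 0.099. CYCB1-1 (LOC4327547) fell by 3.21 ± 0.18, and CDKB2-1, a mitotic kinase, was at least 2.71-fold lower. CYCA1-4 was the exception and rose by 0.73. DNA replication was represented by 29 genes, of which 16 were not called, 8 fell and 5 rose (median -0.01, and 0.10 after median centring). D-type cyclins, which start the cycle, had 3 rises (CYCD5-1 by 1.81 ± 0.13, CYCD4-1 by 1.58 ± 0.12 and CYCD5-3 by 1.57 ± 0.11), 2 falls and 4 genes not called. Among 5 genes for inhibitors of cyclin-dependent kinases, 3 rose and 1 fell, and KRP4 rose by 1.65 ± 0.078, from 9.02, 8.99 and 8.85 to 10.56, 10.57 and 10.67.

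Of 10 tubulin genes 9 fell, those for the alpha- and beta-tubulins that build microtubules (median of the 10 genes -1.27). The 1 not called was a gamma-tubulin gene. Among the 4 MAP70 genes for microtubule-associated proteins, MAP70.4 fell, while MAP70.1, MAP70.2 and MAP70.3 rose by 0.39, 0.61 and 0.41. TUB4 (LOC4327550), a beta-tubulin gene, read 11.06, 10.89 and 10.93 in control and 7.05, 7.46 and 7.57 in heat, and fell by 3.60 ± 0.12. TUB1 fell by 2.83 ± 0.076 and TUB6 by 2.77 ± 0.073. Kinesins are motor proteins that run along microtubules, in the spindle among other places. Of 32 kinesin genes 23 fell and 7 rose, and the median of -0.93 became -0.57 with values raised to background. KIN10A and KIN12C dropped to background, at least 8.54-fold and 5.50-fold lower, and KIN14H fell by 3.11 ± 0.10. KIN14H read 4.627, 4.63 and 4.627 in heat, near-identical values that may not be measured levels. In contrast KIN14K rose by 1.68 ± 0.21 and KIN1 by 1.31 ± 0.063. On the actin side, the actin-depolymerising factors ADF11 and ADF7 fell by 3.11 ± 0.22 and 2.52 ± 0.10 and the actin gene ACT2 by 1.72 ± 0.052, whereas the formin FH5, which nucleates actin filaments, rose by 0.80 ± 0.071.

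**Figure D4:**
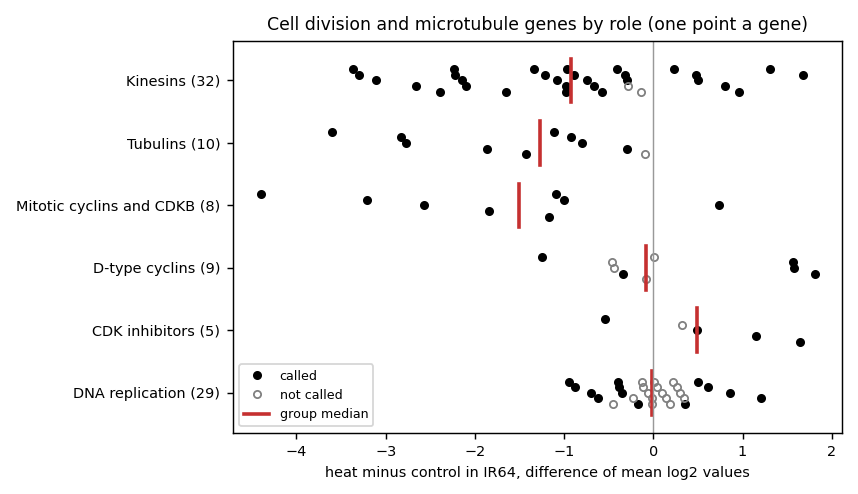
Heat minus control in IR64, as the difference of mean log2 values, for each gene of 6 roles in cell division and the microtubule system; filled points are called genes and red bars are group medians. Medians, which for kinesins become -0.57 with values raised to background, lie at -0.93 for kinesins, -1.27 for tubulins and -1.51 for mitotic cyclins, and at -0.01 for DNA replication.

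Sucrose handling shifted in single members more than as a group. Sucrose synthase SUS1 (LOC4333062), which splits sucrose and feeds cellulose synthesis, read 11.88, 11.89 and 11.98 in control and 5.58, 5.62 and 5.77 in heat. It fell by 6.26 ± 0.079 (limma adjusted p = 8.4e-12), and its second probe set also fell. Sus2 fell by 1.05 ± 0.054 and SUS3 by 0.89 ± 0.16, while SUS4 rose by 0.36 ± 0.058. The cell wall invertase CIN1 fell by 2.60 ± 0.18 and CIN7 rose by 1.46 ± 0.12. Of 16 sugar transporter genes 4 rose, 5 fell and 7 were not called. SWEET14 (LOC4350572, on a shared probe set), a sucrose exporter, went from 3.37, 4.81 and 3.44 to 7.90, 7.64 and 7.75 and rose by 3.89 ± 0.32. SWEET11, another sucrose exporter, fell by 1.45 ± 0.042, and SWEET5 was at least 5.80-fold lower.

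Over the 23 genes of nitrogen uptake and assimilation 6 rose, 12 fell and 5 were not called. Glutamine synthetase joins ammonium to glutamate, and the cytosolic forms GLN1-3 and GLN1-1 both fell, GLN1-3 at least 9.97-fold and GLN1-1 by 2.72 on the log2 scale. The plastid form GLN2 rose by 0.98 ± 0.081. Of the glutamate synthases, GLT2 (LOC4339561) went from 5.45, 5.65 and 5.51 to 9.57, 9.40 and 9.48, a rise by 3.94 ± 0.14, and Fd-GOGAT rose by 0.97 ± 0.075. Nitrate reductase NIA1 (LOC4345795) read 9.40, 9.51 and 9.53 in control and 6.16, 6.33 and 6.32 in heat, and fell by 3.21 ± 0.15. The ammonium transporter AMT3-2 fell by 3.0 ± 0.16 and the nitrate uptake partner NAR2.2 by 2.22 ± 0.12. Of 23 aquaporin genes 13 fell and 4 rose. PIP2-2 fell by 2.49 ± 0.056 and PIP1-1 by 1.57 ± 0.079, whereas PIP2-6, PIP2-7 and TIP4-1 rose by 0.93 ± 0.067, 0.89 ± 0.096 and 0.89 ± 0.071. Among 51 metal transport genes 26 fell and 7 rose, and the zinc transporter ZIP1 (LOC4342782) was at least 3.88-fold lower.

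After 8 days the heat shock system was not raised as a whole. The 19 genes for small heat shock proteins had a median of -0.60, with 10 falls, 3 rises and 6 not called. HSP16.9A (LOC4325697) read 7.25, 7.0 and 7.06 in control and 10.56, 10.62 and 10.66 in heat, and rose by 3.51 ± 0.065. HSP16.9B rose by 1.94 ± 0.20 and HSP23.2, from background, at least 2.92-fold. HSP17.9B went the other way, from 13.13, 13.00 and 13.05 to 10.69, 10.70 and 10.67, a fall by 2.37 ± 0.053. HSP24.1 fell by 3.67 ± 0.13 and HSP16.0 was at least 12.3-fold lower. HSP21.9, HSP17.8 and HSP16.6 were at background on all 6 IR64 arrays.

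Heat stress transcription factors followed no common direction. In class A, which activates heat shock genes, 4 of 11 fell and 1 rose: HSFA2C fell by 2.35 ± 0.26 and HSFA2D by 1.65 ± 0.11, while HSFA2E rose by 0.41 ± 0.076 and HSFA1 was not called, at -0.18 ± 0.10. In classes B and C, 4 of 8 fell and 2 rose. HSFB2C (LOC4347637) went from 9.39, 9.40 and 9.40 to 6.54, 6.28 and 6.07, a fall by 3.10 ± 0.11, and HSFC1B (LOC4324158) from 6.71, 6.78 and 6.81 to 9.72, 9.94 and 9.82, a rise by 3.06 ± 0.077. The groups did not overlap for either gene. HSP90 genes split as well, as HSP81-1 fell by 2.23 ± 0.041 and HSP81-2 rose by 0.81 ± 0.047. The disaggregase gene CLPB1 fell by 0.90 ± 0.078.

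In the endoplasmic reticulum, where secreted proteins fold and are glycosylated, 25 of 33 genes fell and 2 rose (median -0.52). The calreticulin gene CRO1 fell by 2.54 ± 0.067, from 12.26, 12.23 and 12.20 to 9.78, 9.53 and 9.78, and the HSP70-type chaperone gene BIP1 by 1.86 ± 0.098. OST3, of the complex that attaches glycans, fell by 1.24 ± 0.075. Of 16 proteasome subunit genes 15 fell and none rose (median -0.69), with PBB1 at -1.20 ± 0.074. Of 26 genes of mitochondrial respiration 21 fell and 2 rose (median -0.72). The 7 genes of succinate dehydrogenase, complex II of the respiratory chain, all fell, a group singled out after its values were seen. SDH3-2 fell by 1.55 ± 0.24, SDH7 by 1.38 ± 0.11, SDH4 by 1.13 ± 0.075 and SDH5 by 0.99 ± 0.050. Of 33 ribosomal protein and translation factor genes 20 fell and 5 rose (median -0.25), and quantile normalization left 13 falls and a median of -0.07.

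Abscisic acid signalling genes were among those that rose. Among 54 protein phosphatase 2C genes there were 26 rises and 11 falls (median 0.24). In clade A, which represses abscisic acid responses, 5 of 7 rose and none fell, with a median of 1.16 (N22 median -0.08). PP2C08 (LOC4324182) read 7.68, 7.85 and 7.64 in control and 9.40, 9.43 and 9.31 in heat, and rose by 1.65 ± 0.062. PP2C09 rose by 1.43 ± 0.099, PP2C68 by 1.35 ± 0.17 and PP2C06 by 1.16 ± 0.072. Of the 10 SAPK kinase genes, whose products these phosphatases inhibit, 5 rose and 4 fell. SAPK9 (LOC4352660, on a shared probe set) rose by 2.36 ± 0.084, from 8.49, 8.72 and 8.67 to 11.03, 10.96 and 10.98, and SAPK10 by 1.65 ± 0.19, while sapk2 fell by 1.19 ± 0.095.

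Rises appeared in some genes downstream of these kinases. BZIP23 and TRAB1, transcription factors of the abscisic acid response, rose by 1.55 ± 0.056 and 0.73 ± 0.065. Of 9 LEA, VP1 and dehydrin genes, which protect drying cells, 3 rose (33.3%) and 6 were not called. That share was near the share of rises over all genes. LEA19 was at least 2.95-fold higher, RAB21 rose by 1.5 ± 0.17 and LIP9 by 0.47 ± 0.088. LEA19 and RAB21 also belong to the 7 embryo and maturing seed markers, whose summed level was 6.19 to 6.31 in control and 7.09 to 7.48 in heat; the other 5 were at background on all 6 arrays. P5CS2, a pyrroline-5-carboxylate synthase gene of proline synthesis, was at background in control and at least 2.98-fold higher in heat. ZEP, whose enzyme supplies a precursor of abscisic acid, fell by 1.57 ± 0.12, and ABA8OX2, which breaks the hormone down, rose by 0.46 ± 0.064. PYL11, of abscisic acid sensing, fell by 0.33 ± 0.077, and ABA8OX1 was not called, at 0.08 ± 0.18.

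Auxin and gibberellin genes changed at several levels. Of 23 Aux/IAA repressor genes, many of them induced by auxin, 15 fell and 3 rose, with a median of -0.50 that became -0.23 with values raised to background. IAA1 (LOC4323871) fell by 1.97 ± 0.096, while IAA18 rose by 0.93 ± 0.21. GH3.2 (LOC4326893), which conjugates auxin to amino acids, went from 9.17, 9.18 and 9.32 to 6.05, 5.68 and 5.67, a fall by 3.43 ± 0.18. TAR2, of auxin synthesis, fell by 1.94 ± 0.16, and the efflux carrier PIN3A rose by 2.02 ± 0.15. In gibberellin synthesis CPS1, the first committed enzyme, was at least 7.11-fold lower and GA20OX3 fell by 1.22 ± 0.080, while GA20OX2, the gene known from semi-dwarf rice, rose by 1.79 ± 0.10 and the DELLA repressor gene SLR1 by 0.73 ± 0.10. Type-B cytokinin response regulators, which are transcription factors, had 3 rises among 4 genes, with RR23 at 1.47 ± 0.15 and RR24 at 1.14 ± 0.069.

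All called clock genes rose. They were 5 of 7, with a median of 0.69, and LHY and PRR95 were not called. In N22, 3 of these 7 genes rose and 1 fell, with a median of 0.22. An hour of sampling is not given here, and its part in these values was not tested. PCL1 (LOC4326391), the LUX-type evening complex gene, read 10.18, 10.22 and 10.11 in control and 12.57, 12.56 and 12.59 in heat, and rose by 2.40 ± 0.046. PRR37 rose by 1.09 ± 0.088, PRR73 by 0.90 ± 0.054, PRR1 by 0.69 ± 0.048 and GI by 0.50 ± 0.081. The florigen gene Hd3a went from 7.47, 7.73 and 7.52 to 4.71, 4.0 and 4.56 and fell by 3.15 ± 0.22.

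The 26 MADS-box genes, many of which specify floral organs, had 11 rises and 8 falls. Their median of 0.18 became 0.00 with values raised to background. MADS1 (LOC4332059), which specifies lemma and palea, read 12.22, 12.14 and 11.93 in control and 9.75, 9.57 and 9.81 in heat, a fall by 2.39 ± 0.11. MADS17, an AGL6-type gene, fell by 2.83 ± 0.11, MADS5 by 1.33 ± 0.097 and the B-class gene MADS2 by 1.09 ± 0.067. The C-class genes MADS3 and MADS58, of stamen and carpel identity, rose by 1.66 ± 0.17 and 1.17 ± 0.073. MADS13 (LOC4351753), an ovule identity gene, was at background in control (2.50, 2.46 and 2.42) and read 5.29, 5.30 and 5.88 in heat, at least 2.44-fold higher. Of 5 YABBY genes, which mark the outer face of lateral organs in many plants, 3 fell and none rose, with YAB2 at -1.93 ± 0.14.

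The 40 homeobox genes had 19 rises and 7 falls. Their median of 0.39 became 0.02 with values raised to background. The largest rises were in the HD-Zip class: hox14 (LOC4343726) from 3.10, 2.29 and 3.10 to 7.33, 6.99 and 7.45, at least 8.31-fold, HOX12 by 3.37 ± 0.19 and Hox22 at least 2.47-fold. The meristem gene OSH1 fell by 0.76 ± 0.11, its relative OSH43 by 1.84 ± 0.075 and HOX2 by 3.04 ± 0.26. OSH43 read 4.837 on every heated IR64 array, so its fall rests on a value that may not be a measured level. Growth-regulating factor genes, whose products promote cell proliferation in leaves, included GRF6 (up by 1.92 ± 0.070), GRF7 (1.39 ± 0.15) and GRF1 (1.34 ± 0.15). Of 7 growth-regulating factor genes 3 rose, 1 fell and 3 were not called, a group counted after its values were seen. In the joint list of 26 SPL, TCP and GRF genes 11 rose and 8 fell, a balance that was lost without control replicate 2 (7 rises, 8 falls), without heat replicate 3 and with no filter on low values (7 of each in both). Of 14 meiosis genes 6 rose and 1 fell, the largest rise being that of PAIR2, by 1.26 ± 0.29. Of 9 tested meiocyte markers, a set that includes PAIR2, 1 rose and 2 fell. The summed level of the meiocyte markers was 7.598 to 7.775 in control and 7.417 to 7.497 in heat.

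Genes of RNA silencing numbered 25, with 12 rises and 5 falls (median 0.19, and 0.31 after quantile normalization). Of the Argonaute genes, AGO1B (LOC9270411), of the clade that binds microRNAs, read 10.43, 10.35 and 10.50 in control and 12.11, 12.12 and 12.20 in heat, a rise by 1.72 ± 0.066, and AGO1 rose by 0.99 ± 0.067. AGO4A and RDR2, of the pathway that directs DNA methylation, rose by 1.42 ± 0.10 and 0.97 ± 0.062. AGO14 was at least 2.85-fold higher, and AGO18 fell by 0.99 ± 0.092. The maintenance methyltransferase gene MET1B fell by 1.65 ± 0.16, and ROS1C, a DNA glycosylase that removes methylated cytosine, rose by 1.21 ± 0.065. In all, 12 of 27 histone and chromatin genes rose and 6 fell.

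Photosynthesis genes did not lean one way in IR64. Of 16 genes of light harvesting and the photosystems 7 rose and 7 fell (median 0.07, and 0.19 after median centring). PSAG, a photosystem I subunit gene, fell by 1.58 ± 0.17, LHCP, a light-harvesting protein gene, fell by 0.96 ± 0.078, and petC, of the cytochrome b6f complex, rose by 0.74 ± 0.090. In chlorophyll metabolism 9 genes rose and 6 fell out of 19. CHLH and CHLD, subunits of the same magnesium chelatase, moved in opposite directions, at -1.20 ± 0.18 and 1.47 ± 0.064, and so did the protochlorophyllide reductases PORB (-1.10 ± 0.10) and PORA (1.18 ± 0.15). NYC1 and NOL, which reduce chlorophyll b on the way to its breakdown, rose by 0.89 ± 0.18 and 1.08 ± 0.10.

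Defence and detoxification genes mostly fell. Of 14 chitinase and PR protein genes 10 fell and 1 rose (median -1.41). The PR10 gene PBZ1 (LOC4352491), read 15.41, 15.32 and 15.31 in control and 13.40, 13.49 and 13.51 in heat, a fall by 1.88 ± 0.093, and a chitinase gene (LOC4336265) fell by 2.95 ± 0.080. Glutathione S-transferases had 6 falls among 6 genes (median -2.75), led by GSTU1, a probe set that can match several transcripts, by 4.53 ± 0.11. Of 16 genes for ascorbate peroxidase, catalase, superoxide dismutase and their partners 10 fell and 4 rose. SODCC.1, a cytosolic superoxide dismutase, fell by 2.69 ± 0.080 and APX1 by 1.66 ± 0.067, whereas the chloroplast ascorbate peroxidase APX8 rose by 1.0 ± 0.20. Among 18 glutaredoxin genes 10 fell by up to 2.29 and 5 rose. GRXC1 (LOC4325734), at background in control, read 6.92, 7.18 and 7.11 in heat, at least 7.31-fold higher, and GRXC10 rose by 2.85 ± 0.072. Of the calcium sensors, 15 of 23 calmodulin and CML genes and 14 of 19 calcium-dependent protein kinase genes fell, and CPK29 was at least 3.33-fold lower.

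The remaining large changes lay outside these groups. Among genes with a name, NifU1 (LOC4351651), a scaffold for iron-sulfur clusters read on a shared probe set, was at least 12.7-fold lower, and ASMT3 (LOC4347993), an O-methyltransferase of melatonin synthesis, at least 11.9-fold lower. BU1 (LOC4340551), a brassinosteroid-induced helix-loop-helix gene, was at least 2.31-fold higher, the chloroplast sigma factor gene Sig2B rose by 2.90 ± 0.19, and OSE727A, a Bowman-Birk type protease inhibitor gene, rose by 2.95 ± 0.053. Several genes without an informative name moved further still. LOC4338538 was at background in control and read 10.56, 10.59 and 10.61 in heat, at least 83.3-fold higher. LOC4343084 was at least 34.6-fold higher, LOC4330113 at least 35.7-fold and LOC9272019 at least 13.4-fold, and LOC4342616 rose by 6.23 ± 0.14. In the other direction LOC4343814 fell by 6.93 ± 0.14, LOC4348299 by 6.43 ± 0.13, LOC9271676 by 6.29 ± 0.11 and LOC4336383 by 6.10 ± 0.31, and LOC4341132 was at least 41.1-fold lower.

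How far these effects differ from those in N22 was tested as the difference of the 2 heat effects in the same fit. In N22, 10142 of 16069 genes were called for heat (63.1%), and the difference N22 minus IR64 was called for 10561 genes (65.7%), with 35.5% having the higher effect in N22 and 30.2% the lower. At 2-fold, 19.7% of genes were called for heat in N22 (13.5% higher, 6.28% lower) and 31.7% for the difference (20.4% higher, 11.3% lower). Over probe sets the difference was called for 55.4%, of which 29.3 percentage points were higher and 26.1 lower, and at 2-fold for 27.9% (17.2% and 10.7%). This balance depended on the scaling: 8744 probe sets higher and 7764 lower became 7702 and 9807 after quantile normalization and 6594 and 13813 after median centring, and at 2-fold 5129 and 3179 became 3832 and 5366 after centring. All the wall genes given above with falls over 3 log2 units differed between the cultivars. For CESA4 the N22 effect was -0.20 (limma adjusted p for the difference = 6.27e-10) and for PAL06 it was 0.12 (adjusted p = 1.03e-07). CESA9 lay at background on all 6 N22 arrays and 4CL5 on 5 of them, so N22 could show little or no fall. CESA4 averaged 7.2 in N22 control, near the 6.9 of IR64 heat. CESA8, in contrast, averaged 9.5 in N22 control, with an N22 effect of -0.12. For mitotic cyclins and CDKB the median was -1.32 in N22 beside -1.51 in IR64, and 24 of 32 kinesin genes fell in N22 beside 23. GLU5, GLT2, GRXC1, GRXC10, HSFC1B and BU1 rose in both cultivars. In N22, GRXC10 rose by 3.78 and HSFC1B by 1.99. GLU5 and GLT2, with 2 and 1 of the 3 N22 controls at background, rose by 3.56 and 4.40 with values raised to that level. GRXC1 and BU1 were at background in all 3 N22 controls and at least 1.63-fold and 6.44-fold higher in heat.

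Called effects of at least 2-fold in opposite directions were found in 262 genes lower in IR64 and higher in N22 (1.63%), and in 30 genes with the reverse pattern (0.187%). Of named genes these were 58 (2.55%) and 6 (0.264%). Among small heat shock protein genes HSP17.4 had this pattern. It read 9.10, 9.24 and 9.08 in control and 6.42, 6.24 and 6.66 in heat in IR64, and rose by 5.00 in N22. Of 19 such genes 18 rose in N22. Chitinase and PR protein genes rose in N22 in 11 of 14 cases, and 10 of 12 phytoalexin synthesis genes rose there beside 2 in IR64. Light harvesting genes had a median of 2.67 in N22. AGO1B and SSRP1-B, a histone chaperone gene, rose in IR64 and fell in N22 by 0.97 and 1.28, as did RAB21 by 1.73 and LEA19 by 0.90. The N22 falls of AGO1B and LEA19 were under 2-fold, so both genes lie outside the 30. The panicles were not alike in content: endosperm markers summed to 18.04 to 18.25 on N22 arrays and to 10.90 to 11.59 on IR64 arrays.

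**Figure D5:**
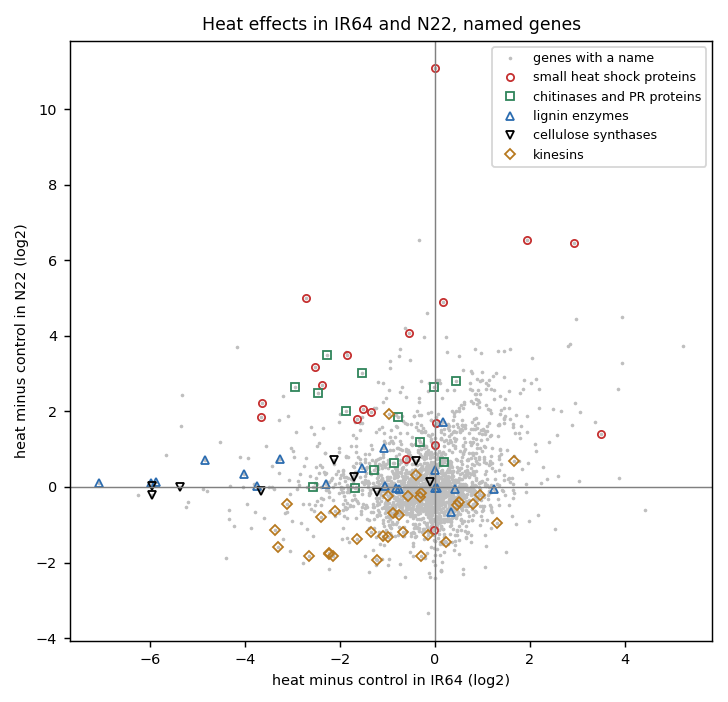
Heat minus control in N22 against the same difference in IR64, in log2, for the 2276 tested genes with a name, with 5 groups marked. Lignin and cellulose genes spread to the left near 0 on the N22 axis, kinesins lie mostly in the lower left, and most small heat shock protein and chitinase genes lie above 0 for N22.

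Several probe sets of a gene did not always give the same answer. Of 2322 genes with 2 or more kept probe sets, 605 (26.1%) had all of them called the same way, 1077 had some called one way and others not called, 165 (7.11%) had calls in both directions, and 475 had none. Of the 30 named genes with the largest changes, 4 had a second kept probe set (SUS1, PAL06, CESA4 and SWEET14), and it was called the same way in all 4. Besides those given as shared above, XOAT11, IRX14, GUT1, KIN14K, KIN1, SWEET11, AMT3-2, PIP2-2, LEA19, RAB21, ABA8OX2, PIN3A, OSH1, PORB and OSE727A were read on probe sets that can match several transcripts, and their values may mix near-identical genes.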

How the data were processed

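Transcript levels of 12 rice panicle samples (IR64 and N22, heat and control, 3 arrays each) were measured on a 1-colour Affymetrix rice array. The authors deposited log2 values, made with GCRMA per the submitters' processing notes (version not given). GCRMA corrects background by probe sequence and normalizes between arrays, which pulls dim probe sets to a common floor, and 43.1% of all values lay within 0.005 of the lowest one. Scanner files were not used here, and the number of arrays limits the precision. The deposited values were used without further normalization.

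Probe sets above the median of the table (2.35) on at least 3 of 12 arrays were kept, 29801 of 57194. With limma 3.58.1 (R 4.3.3), the mean of each of the 4 groups was estimated in a single fit over the 12 arrays (8 residual and 1.79 prior degrees of freedom), with 2-sided tests and Benjamini-Hochberg adjustment over the 29801 probe sets. The fit was tested on simulated data, but the outcome is not given here and no result above rests on it. Each gene was represented by its brightest kept probe set among those paired with exactly 1 gene: 22436 probe sets had 1 gene, 95 several and 34850 none in the platform annotation. Names came from the RefSeq gene table of assembly ASM3414082v1, which held all 17905 genes, 2457 of them with an informative name. The sources used here do not name the build behind the array annotation, so no coordinates are given. Promoter sequences were not analysed here.

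The members and the 81 gene lists were chosen with earlier results of these data known. Genes were named by rule: the 15 largest named rises and falls whose arrays do not overlap between groups, the largest called members of each list (up to 6, and up to 4 in the lesser direction), any member of lists of 12 genes or fewer, the 5 largest unnamed rises and falls, and up to 12 genes with opposite effects in N22. PAL, 4CL2, 4CL4, HCT2, HCT3, CAD1, CAD3, CAD8C, AT7, GUT1, SUS3, ACT2, CYCA1-4, MADS2, OSH1, SDH5, HSP16.6, HSP17.8, HSP21.9, MAP70.1, MAP70.2, MAP70.3, MAP70.4 and DL fall outside it and were added after their values were seen, to show further steps or members not called. Alternatives covered the filter, normalization, variance model, samples in the fit, replicates and probe set choice. Replicate numbers are shared between groups, but same-numbered IR64 samples correlated at -0.0535 to -0.0155 in their deviations from group means (3 pairs), so they were not treated as pairs.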

Additional observations from a re-analysis of the deposited data

Results flagged for a closer look

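The heat effect differed between N22 and IR64 for 10561 of the 16069 genes tested (limma adjusted p under 0.05 for the difference). It was lower in IR64 and higher in N22, by 2-fold or more each way in the fit, in 262 genes and the reverse in 30. The 12 named genes with the widest opposite effects in the fit are given as the N22 effect minus the IR64 effect in log2 units. Of these, 8 were above background on all 12 arrays. The expansin gene EXPB9 differed by 7.76. Of the small heat shock protein genes, HSP17.4 differed by 7.70, HSP18.6 by 5.68 and HSP24.1 by 5.53. HSP18.6 was read on a probe set that can match several transcripts. Another of its probe sets lay at background on all 3 heated IR64 arrays and on 2 of the 3 N22 control arrays. The nitrate reductase gene NIA1 differed by 5.61 and the glutathione S-transferase gene GSTU1 by 5.71. Of the chitinases, Cht4 differed by 5.77 and LOC4336265 by 5.595. The other 4 lay at background on all 3 N22 control arrays, and 3 of them on all 3 IR64 heat arrays too, so their fitted differences rest on values that are not measured levels and give no rank. The fit gave 7.88 for EXPB10, 6.96 for NifU1, 5.85 for HSP16.0 and 5.43 for CYP99A2. With values raised to the background level these were 4.34, 4.04, 5.57 and 4.03. On that scale the N22 rise of NifU1 was 0.38, under 2-fold. The control levels of the 2 cultivars differed for several of them: EXPB9 read 10.6 in IR64 control and 4.86 in N22 control, and LOC4336265 read 13.2 and 6.27. The part of these starting levels, of the GAPDH signal ratio and of panicle content in the differences was not tested.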

How the results depend on the processing

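None of the 635 called genes checked changed sign under the alternatives run, but balances of counts did. Among called probe sets in IR64 heat, lower ones outnumbered higher ones (8210 against 7217), and this turned to 7263 against 8893 under quantile normalization and 6938 against 9129 under median centring. Beta-glucosidase genes went from 6 lower and 3 higher to 3 and 9 under median centring, cystatin genes from 2 lower and 1 higher to 1 and 2 under quantile normalization, and SPL, TCP and GRF genes from 11 higher and 8 lower to 7 and 8 without control replicate 2. Leaving out 1 IR64 array at a time gave 6570 to 7101 probe sets higher and 7686 to 7893 lower in IR64 heat, with 1913 to 2004 higher and 3197 to 3342 lower at 2-fold, a GAPDH change of 3.05 to 3.24, 33 to 37 probe sets appearing and 145 to 157 falling to background. For the difference between cultivars it gave 8470 to 8550 higher and 7276 to 7812 lower, and 5045 to 5177 and 3110 to 3279 at 2-fold. With the replicate number as a block, limma called 7166 higher and 8096 lower, and same-numbered samples did not deviate together, so this block is a number shared by label only. Median centring raised the probe sets with a lower difference between cultivars from 7764 to 13813, and at 2-fold from 3179 to 5366. A margin of 1 log2 unit above background gave 95 probe sets appearing and 329 falling to background in place of 31 and 145. Of 635 called genes, 2 to 56 lost their call in the settings that tested all of them, most when values were raised to the background level. With the filter at background, 606 of them were tested and 0 lost their call. Of the 81 lists, 0 to 6 moved their larger count by over 1.5 times per setting. Why these values moved was not tested. Values near the floor limit what can be said of dim genes.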
